A study of Mus musculus with 14 samples.

Results

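The cells described here were spiral ganglion neurons of the mouse cochlea at embryonic day 16 (E16) that carried at least 1 UMI of Lypd1 and 0 UMIs of Calb2, compared between the apical and the basal portion of the ganglion. A UMI (unique molecular identifier) stands for 1 captured transcript molecule. The rule selected 1026 of the 2478 cells sequenced at E16, in a series of 5441 cells that also holds E14, E18 and postnatal day 1 (P1). Of these, 710 came from the apex (170, 306 and 234 in replicates 1, 2 and 3) and 316 from the base (72, 123 and 121). All mice were of the CD1 strain and no genotype or treatment was labelled. Each replicate pooled ganglia of several embryos, the replicates were separate litters, and at E16 every ganglion was divided at the middle turn, so an apical and a basal library share a litter. Tissue at E14 and E16 was dissociated with trypsin, and tissue at E18 and P1 with papain. The neurons were dissected out roughly, with some of the surrounding mesenchyme and sensory epithelium, and the deposited label for all cells is spiral ganglion neuron.

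Spiral ganglion neurons carry sound information from hair cells to the brainstem. Type I neurons contact inner hair cells and fall into the subtypes IA, IB and IC, of which IA neurons keep Calb2 (calretinin) and IB and IC neurons express Lypd1, a GPI-anchored modulator of nicotinic receptors, and Runx1. Type II neurons contact outer hair cells. The cochlea matures from base to apex, so neurons of 1 age differ in developmental stage along the spiral. The comparison asks whether apex and base differ among cells chosen by these 2 genes as candidates for future IB and IC neurons. It thus looks beyond how many such cells each portion holds. Whether the chosen cells belong to that lineage was not tested. The same rule took 46.0%, 36.1% and 38.0% of the cells of the E14 libraries.

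The 1026 cells gave between 342769 and 1903873 UMIs per library after summing. Median depth per cell was 5038.5, 5803.5 and 5726 UMIs in the apex and 9159, 2624 and 6515 in the base, so base replicate 2 was the shallowest library and base replicate 1 the deepest. No cell barcode was shared between the E16 libraries. Mitochondrial genes took 2.58% to 3.14% of the UMIs. Pan-neuronal transcripts were high in each portion: the tubulin Tubb3 averaged 1792 CPM (UMIs per 1000000 UMIs of the summed cells) in the apex and 1874 in the base, and the sensory-neuron factor Pou4f1 198 and 197. Runx1, a defining factor of the IB and IC subtypes, was present at 202 to 468 CPM in every library, and the other IB and IC marker Lmx1a had 0 UMIs in the selected cells.

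Lypd1 and Calb2 chose the cells, so their values are a description with no test. Lypd1 stood at 950, 1099 and 1422 CPM in the apex and at 1265, 1313 and 1570 in the base, ranges that overlap, and the median member had 6 Lypd1 UMIs in each portion. Just inside the rule, 119 apical and 39 basal members had exactly 1 Lypd1 UMI. Just outside it, 17 apical and 40 basal cells had Lypd1 together with a lone Calb2 UMI, and 465 apical and 321 basal cells had neither gene. Among cells with Calb2, 11.3% to 26.2% per library also had a Lypd1 UMI. Among cells without Calb2, at like median depths, the shares with Lypd1 were 55.2%, 63.1% and 61.3% in the apex. In the base they were 47.4%, 38.9% and 71.6%, so the ranges overlap. The part of free RNA in these counts was not tested.

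Members made up 51.8%, 56.2% and 47.2% of the cells of the apical libraries and 30.6%, 26.4% and 29.6% of the basal ones, means of 51.8% ± 4.54 and 28.9% ± 2.21 (SD, n = 3 each). The ranges did not overlap and the gap was 22.9 percentage points. After every cell was thinned to 2000 UMIs, which left out 13 apical and 27 basal cells, the gap was 14.2 points (42.3% ± 2.08 against 28.1% ± 3.28). It was 20.2 points with cells thinned to 3000 UMIs, which left out 27 apical and 318 basal cells. It was 2.27 points when cells were thinned to 5000 UMIs, a depth that 352 apical and 501 basal cells did not reach. At that depth base replicate 2 kept 11 cells, 7 of them members (63.6%), and without replicate 2 the gap was 10.7 points (41.1% against 30.4%, n = 2 each). Without replicate 2 it was 11.5 points at 2000 UMIs and 13.6 at 3000. Cells with Calb2, which the rule leaves out, made up 6.10%, 10.8% and 23.0% of the apical libraries as deposited. In the basal libraries they made up 35.3%, 32.2% and 58.7%. How much of the gap in members came from each of the 2 genes was not tested.

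**Figure D1:**
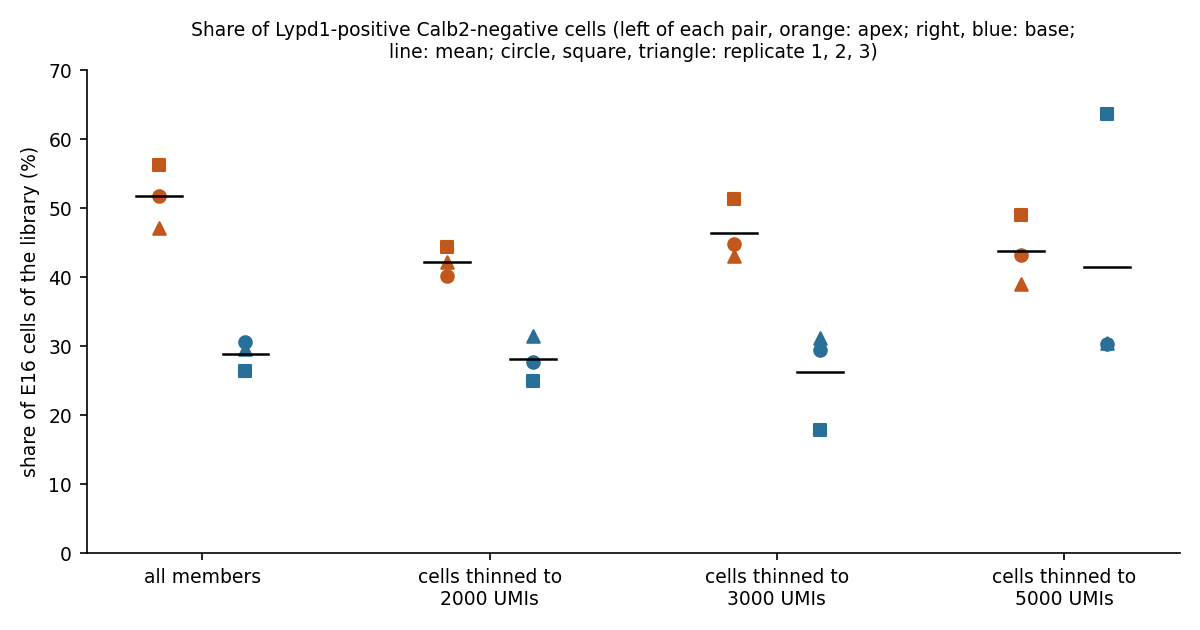
Share of Lypd1-positive Calb2-negative cells among the E16 cells of each library (vertical axis, percent), for all cells as deposited and for cells thinned to 2000, 3000 and 5000 UMIs; orange points are apical and blue points basal libraries, marker shapes are replicates and lines are means. The gap of 22.9 points between the portions is 14.2, 20.2 and 2.27 points at these depths, and the highest basal point at 5000 UMIs is replicate 2 with 11 cells.

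Within these cells, 677 of 8918 genes tested (7.59%) differed between apex and base at an adjusted p under 0.05, 267 higher in the apex (2.99%) and 410 higher in the base (4.6%). UMI counts were summed over the members of each library and the sums compared with edgeR's quasi-likelihood test with Benjamini-Hochberg adjustment, with the replicate number as a block. Differences are given as log2 of apex over base ± SE, so positive values are higher in the apex. Lypd1 itself is among the 410 and is not read as a result. In this fit the spread of each gene between libraries was taken from a value fitted over all genes, with no weight on the gene's own spread. This makes very small p-values possible. Without the block 239 genes passed (101 higher in the apex, 138 in the base) and with DESeq2 162 (65 and 97), and each of those was among the 677. A set of 137 genes (57 and 80) passed in these fits and also with each replicate left out in turn.

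The 12 largest differences toward the apex included Etv4, Dusp6 and Uts2b. Etv4, an ETS transcription factor induced by FGF signalling, stood at 134, 106 and 95.2 CPM in the apex and at 1.5, 17.5 and 5.06 in the base. Every apical library was above every basal one, a difference of 4.10 ± 0.29 (edgeR adjusted p = 3.57e-43). The ERK phosphatase Dusp6, a feedback inhibitor of the same pathway, stood at 40.3, 29.9 and 33.4 against 0, 8.75 and 3.79 CPM (3.29 ± 0.43). Other genes known to respond to FGF did not pass, Etv5 at 0.77 ± 0.30 and Spry4 at 0.24 ± 0.38 (adjusted p in edgeR 0.0954 and 0.843), and Spry1 and Spry2 were too rare for the test. Uts2b, which encodes a urotensin-related neuropeptide, stood at 45.5, 91.4 and 73.4 against 0, 14.6 and 0 CPM (4.45 ± 0.38). The libraries of Dusp6 and Uts2b did not overlap either, but with DESeq2 Dusp6 and Uts2b had adjusted p of 0.104 and 0.0890. Fam46a, a non-canonical poly(A) polymerase, had 130 UMIs in the apical and 1 UMI in the basal members. Scaled to depth, that is a ratio of 55.1 with a 95% counting interval from 9.72 to 2194.

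Other genes of the top 12 toward the apex were the GPI-anchored cadherin Cdh13 (3.51 ± 0.45), the RNA-binding protein Adarb2 (3.03 ± 0.49), the G-protein signalling regulator Rgs4 (2.98 ± 0.37), the guanine nucleotide exchange factor Vav3 (2.76 ± 0.33) and the centrosomal protein Tacc2 (2.66 ± 0.26). They also included the transmembrane semaphorin Sema6d (2.58 ± 0.40), the IgLON adhesion protein Negr1 (2.56 ± 0.36) and Sobp (2.46 ± 0.33). The top 12 toward the base were led by S100b, a calcium-binding protein, at 4.13, 1.05 and 2.91 CPM in the apex and 103, 90.4 and 121 in the base (-5.40 ± 0.30, edgeR adjusted p = 1.15e-67). Espn, an actin-bundling protein known from hair-cell stereocilia, stood at 2.07, 0.525 and 2.91 against 19.5, 43.8 and 98.6 CPM (-5.00 ± 0.39). The 3 basal values of Espn spanned a wide range, yet the lowest exceeded the highest apical value. The junction protein Plekha7 was at 35.9, 35.0 and 36.7 CPM in the base and at no more than 2.18 in the apex (-4.19 ± 0.44).

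Further down the same list were Gldn, an organizer of nodes of Ranvier (-3.42 ± 0.39), the copine Cpne9 (-3.11 ± 0.29), the chemokine Ccl21a (-3.08 ± 0.46) and the matrix protein Fbln1 (-2.70 ± 0.31). Cntn5, a contactin of the axonal surface, followed at 193, 143 and 117 CPM in the apex against 1054, 831 and 796 in the base (-2.62 ± 0.11). The remaining genes were the adaptor Dok1 (-2.60 ± 0.38), the neuronal calcium sensor Vsnl1 (-2.52 ± 0.18), Mab21l2 (-2.45 ± 0.33) and the adhesion protein Cadm2 (-2.40 ± 0.29). Ccl21a has near-identical copies in the genome, and counting could split their reads. In all 24 named genes the libraries of apex and base did not overlap, which held for 16.4% of the genes tested, and 22 of the 24 are among the 137 genes above. The 24 were chosen from these same libraries for large differences past the threshold. That choice favours both counts, so neither is separate support. Without the block the adjusted p of the 24 genes in edgeR ran from 2.01e-08 (S100b) to 0.00286 (Adarb2).

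**Figure D2:**
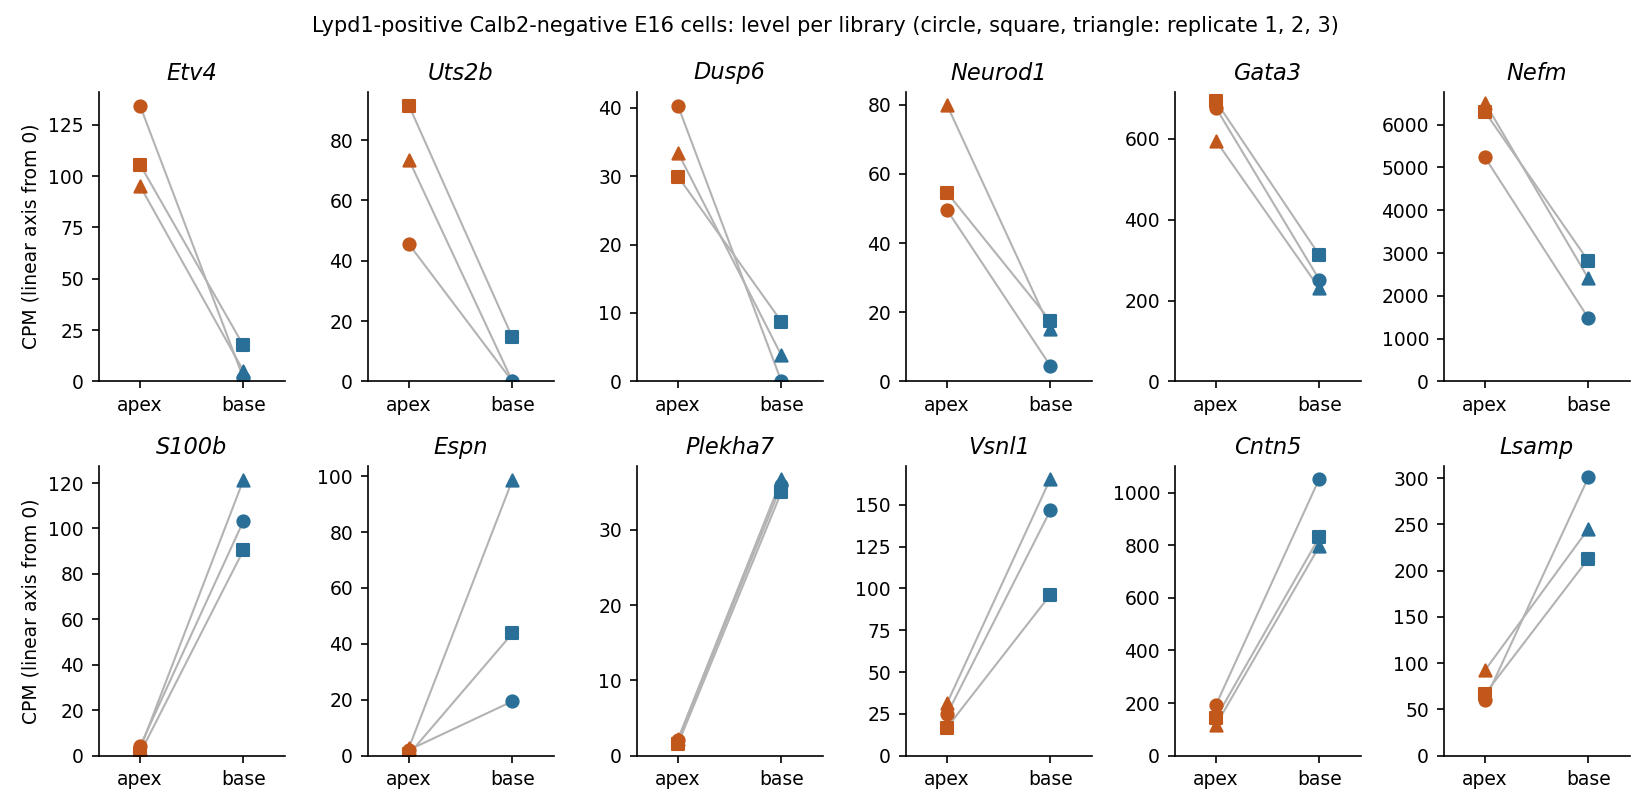
Level in Lypd1-positive Calb2-negative E16 cells (vertical axes, CPM, linear from 0) in the apical and basal library of each replicate, joined by lines, for 6 genes higher in the apex (top) and 6 higher in the base (bottom). Every gene shown separates the 3 apical from the 3 basal libraries, and Cntn5 spans 117 to 193 CPM in the apex against 796 to 1054 in the base.

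The share of cells with a transcript moved with these levels. After thinning each cell to 2000 UMIs, Etv4 was found in 17.1%, 15.7% and 17.4% of apical members and in 0%, 2.75% and 1.65% of basal ones. S100b was found in 0.588%, 0% and 0.435% of apical and 18.1%, 13.8% and 15.7% of basal members. Cntn5 was broadest, in 28.8%, 21.3% and 17.4% of apical and 75.0%, 75.2% and 71.9% of basal members. S100b and Etv4 were thus detected in a minority of cells of either portion at this depth, while most basal members had Cntn5.

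Markers of neuroblasts and young neurons were higher in the apex in 5 of 9 tested of a list of 15, and in none higher in the base (median of the list 0.77, against 0.00 over all genes tested). Over all genes tested, 2.99% were higher in the apex and 4.6% in the base, the shares that list counts are read against. Neurod1, a proneural transcription factor, stood at 49.6, 54.6 and 79.9 CPM in the apex and 4.49, 17.5 and 15.2 in the base (2.38 ± 0.28, edgeR adjusted p = 4.66e-15). The others were Nhlh2 (1.59 ± 0.23) and Insm1 (1.02 ± 0.25), transcription factors of differentiating neurons, Sox11 (0.79 ± 0.10) and Igfbpl1 (0.77 ± 0.15). Nhlh1, too rare for the test, had 74 UMIs in apical and 0 in basal members. The progenitor factor Neurog1 had 0 UMIs in either portion, and of the 8 cycling-cell markers only Hmgb2 could be tested (0.07 ± 0.23).

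Transcription factors that are used to tell neuron subtypes apart went in opposite directions. Gata3, needed for auditory neuron identity and later retained in type II neurons, stood at 677, 693 and 595 CPM in the apex against 251, 312 and 230 in the base (1.28 ± 0.11, edgeR adjusted p = 1.67e-26). Prox1, a homeodomain factor of spiral ganglion neurons, was the other way round, at 34.1, 42.5 and 65.4 against 91.3, 111 and 144 CPM (-1.32 ± 0.17). No apical library overlapped a basal one for Gata3 or Prox1.

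Runx1 was higher in the base (-0.70 ± 0.12) and the calcium-binding IB and IC marker Calb1 higher in the apex (0.58 ± 0.16), so 1 of 5 tested IB and IC markers passed in each direction. Neither Runx1 nor Calb1 passed without the block (adjusted p in edgeR 0.0595 and 0.130). Of the type II list, Etv4 and Gata3 were higher in the apex, while peripherin (Prph, -0.13 ± 0.18) and the neurotrophin receptor Ngfr (0.10 ± 0.15) did not pass. None of 3 tested type IA markers passed. Of 37 tested neuronal transcription factors, 7 were higher in the apex and 7 in the base, against 2.99% and 4.6% of all genes. Among the latter were Meis2 (-2.02 ± 0.42), the neuronal splicing regulator Rbfox3 (-1.30 ± 0.15), known as NeuN, Nfia (-1.24 ± 0.17) and Onecut2 (-0.78 ± 0.14).

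In the list of synaptic vesicle and release genes, 7 of 25 tested were higher in the base and 1 in the apex (median -0.26), against 4.6% and 2.99% of all genes. Slc17a7, the vesicular glutamate transporter VGLUT1, stood at 15.5, 16.3 and 14.5 CPM in the apex against 32.9, 58.3 and 53.1 in the base (-1.70 ± 0.26). The release-site scaffold Rims1 (-0.78 ± 0.22), the calcium sensor Syt7 (-0.76 ± 0.15), the SNARE protein Snap25 (-0.61 ± 0.12), Sv2b (-0.55 ± 0.18), Sv2a (-0.42 ± 0.13) and Rab3a (-0.30 ± 0.10) made up the rest. Complexin 2 (Cplx2), a SNARE-binding regulator, was the exception, at 127, 158 and 190 against 52.4, 84.6 and 51.8 CPM (1.37 ± 0.16). Only Slc17a7 and Cplx2 of these 8 also passed without the block, with adjusted p in edgeR of 0.00153 and 0.00103.

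Of 17 tested voltage-gated potassium channel genes, 4 were higher in the base and 1 in the apex, against 4.6% and 2.99% of all genes. Among the 4 were the auxiliary subunits Kcnip2 (-2.01 ± 0.43) and Kcnab2 (-1.53 ± 0.28) and the BK channel Kcnma1 (-1.16 ± 0.23). The auxiliary subunit Kcnab1 was higher in the apex (1.03 ± 0.30). Of 16 tested HCN and calcium channel genes 3 were higher in the base, the pacemaker channel Hcn2 (-1.15 ± 0.31), the L-type channel Cacna1d (-1.11 ± 0.21) and Cacnb2 (-0.87 ± 0.27). The AMPA receptor subunit Gria3 was higher in the base (-0.61 ± 0.14), the only call of its list of 7 tested genes. Of the channel and receptor genes named here, Gria3 alone exceeded 100 CPM in any library.

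Calcium-binding proteins split in 2 directions, with 5 of 15 tested higher in the base and 2 in the apex, against 4.6% and 2.99% of all genes. Besides S100b and Vsnl1, the base was higher for parvalbumin (Pvalb, -0.57 ± 0.09), the calmodulin gene Calm2 (-0.53 ± 0.09) and Rcn1 (-0.71 ± 0.19). Pvalb stood at 2460, 2410 and 2129 CPM in the apex and 3248, 3483 and 3352 in the base.

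The neurofilament genes, which set axon calibre, did not move as a group. Nefm, the medium chain, stood at 5236, 6301 and 6513 CPM in the apex against 1479, 2812 and 2408 in the base (1.43 ± 0.09, edgeR adjusted p = 2.99e-51), and the light chain Nefl was higher in the apex by 0.96 ± 0.09. The heavy chain Nefh was higher in the base, at 43.4, 60.9 and 56.7 against 89.8, 99.2 and 143 CPM (-1.12 ± 0.16). In the axonal cytoskeleton list of 18 tested genes, the growth-cone protein Gap43 (-0.63 ± 0.10), Stmn3 (-0.32 ± 0.09) and Sncg (-0.32 ± 0.09) were also higher in the base. The last 3 had adjusted p over 0.1 without the block.

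Surface molecules of axons differed in each direction. In the list of cadherins and adhesion molecules 10 of 25 tested genes were higher in the apex and 4 in the base (median 0.36). Of all genes 2.99% and 4.6% were. The IgLON family members of the list, which pair with each other at the neuronal surface, were divided. Opcml stood at 186, 260 and 260 CPM in the apex against 47.9, 96.3 and 60.7 in the base (1.81 ± 0.15), and Negr1 and Ntm (1.27 ± 0.12) were likewise higher in the apex. Lsamp stood at 59.9, 66.7 and 92.3 against 301, 213 and 245 CPM (-1.81 ± 0.14). Contactins were divided too, Cntn5 being higher in the base and Cntn1 in the apex (0.70 ± 0.17). The protocadherins Pcdh17 (2.11 ± 0.30), Pcdh7 (1.04 ± 0.24) and Pcdh11x (0.85 ± 0.18) were higher in the apex and Pcdh9 in the base (-1.28 ± 0.28).

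Of 23 tested axon guidance genes 3 were higher in the apex and 6 in the base, against 2.99% and 4.6% of all genes. The apex was higher for Sema6d, the secreted repellent Sema3a (118, 142 and 168 against 43.4, 72.9 and 77.1 CPM, 1.12 ± 0.16) and the semaphorin receptor Plxna2 (2.05 ± 0.50). The base was higher for the ligand Efna3 (-1.27 ± 0.32), the receptor Epha3 (-1.10 ± 0.26), Robo2 (-0.80 ± 0.26), Plxna1 (-0.77 ± 0.24), Unc5d (-0.52 ± 0.16) and Ntng1 (-0.43 ± 0.12). Of these 6, Efna3 passed without the block (adjusted p in edgeR 0.0392). The libraries of Robo2 and Ntng1 overlapped.

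Of 12 tested Wnt and IGF genes 4 were higher in the apex (against 2.99% of all genes) and none in the base, and each of the 4 was a gene of the IGF axis. The IGF-binding proteins Igfbp2 (186, 241 and 167 against 44.9, 75.9 and 37.9 CPM, 1.92 ± 0.16), Igfbp4 (1.41 ± 0.22) and Igfbp5 (1.39 ± 0.21) and the receptor Igf1r (1.25 ± 0.21) made up the 4. Gfra1, a GDNF co-receptor, stood at 93.0, 112 and 98.8 against 20.2 to 32.1 CPM (2.00 ± 0.21), the only call of 6 tested neurotrophin and GDNF receptors. In the BMP, Notch and FGF list, 5 of 21 tested were higher in the apex and 3 in the base, against 2.99% and 4.6% of all genes. The BMP targets Id2 (1.06 ± 0.13) and Id3 (0.39 ± 0.11) were among the 5, and the inhibitor Smad7 (-0.65 ± 0.19) and the ligand Fgf10 (-0.37 ± 0.12) among the 3.

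In retinoid and thyroid signalling, 2 of 9 tested genes were higher in the base and none in the apex, against 4.6% and 2.99% of all genes. They were Aldh1a3, a retinoic acid synthesizing enzyme (229, 259 and 278 against 431, 502 and 700 CPM, -1.13 ± 0.11), and the thyroid hormone receptor Thrb (-1.01 ± 0.23). Of 17 tested glycolysis genes, Pfkp (-0.60 ± 0.15) and Gapdh (-0.35 ± 0.11) were higher in the base. No gene of 17 tested for cholesterol synthesis passed, in a list whose median was -0.02. Immediate early genes were split, Fos (0.93 ± 0.15) and Dusp1 (0.66 ± 0.18) higher in the apex and Jun (-0.58 ± 0.11) and Fosb (-0.64 ± 0.21) in the base.

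Cells with Etv4 were concentrated at the apex. A UMI of Etv4 was found in 256 of the 710 apical members and in 10 of the 316 basal ones. Members without any Etv4 UMI were compared in a fit added after the data were seen, in which 359 genes passed (139 higher in the apex, 220 in the base). Of the 24 named genes, 21 passed there in the same direction, among them S100b (-5.25), Cntn5 (-2.21) and Uts2b (5.05). Outside the 24, Neurod1 stood at 2.41 and Gata3 at 1.13 in that fit. Etv4 itself, Adarb2 and Negr1 were not tested in that fit. In E14 cells of the same rule Etv4 averaged 180 CPM, and in E18 cells 32.9.

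The other 1452 E16 cells, which lacked Lypd1 or carried Calb2, came from the same libraries and give a side-by-side reading. There 348 of 10309 genes passed (3.38%), 129 higher in the apex (1.25%) and 219 in the base (2.12%), and of the 24 named genes 21 were tested and 20 passed in the same direction. The exception was Sema6d, at 16.6, 20.2 and 21.0 CPM in the apex and 16.7, 13.2 and 16.5 in the base (0.29 ± 0.23), whereas in members it stood at 25.8, 31.5 and 37.1 against 4.49, 8.75 and 3.79. A fit over 12 sums, with the library as a block and a term for class by position, tested whether the difference itself differed. It found 127 of 10285 genes (1.23%), 53 with a larger (0.515%) and 74 with a smaller (0.719%) apex minus base value in members. DESeq2 found 18. With members and other cells pooled, 1162 of 11340 genes differed between apex and base (10.2%).

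Among the 24 named genes, 7 had a class by position term past the threshold. Members had the larger gap in each: Fam46a (4.36 ± 0.98), Sema6d (2.35 ± 0.47), Etv4 (1.83 ± 0.45) and Vav3 (1.56 ± 0.43) toward the apex, and Gldn (-2.35 ± 0.41), Vsnl1 (-1.56 ± 0.22) and Cntn5 (-0.44 ± 0.10) toward the base. The 24 were chosen for large differences in members. A larger gap in members was thus favoured by the choice and is not read as a result. Gata3 is an example of the levels in each class. Its level in apical cells was alike in the classes (655 ± 52.3 CPM in members, 653 ± 74.1 in other cells; SD, n = 3), and in basal cells it was 265 ± 42.6 in members against 415 ± 83.4 in other cells (term 0.66 ± 0.10, edgeR adjusted p = 3.35e-07). Prox1, Thrb and Ntng1 had negative terms (-0.96 ± 0.20, -1.42 ± 0.29 and -0.83 ± 0.14).

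**Figure D3:**
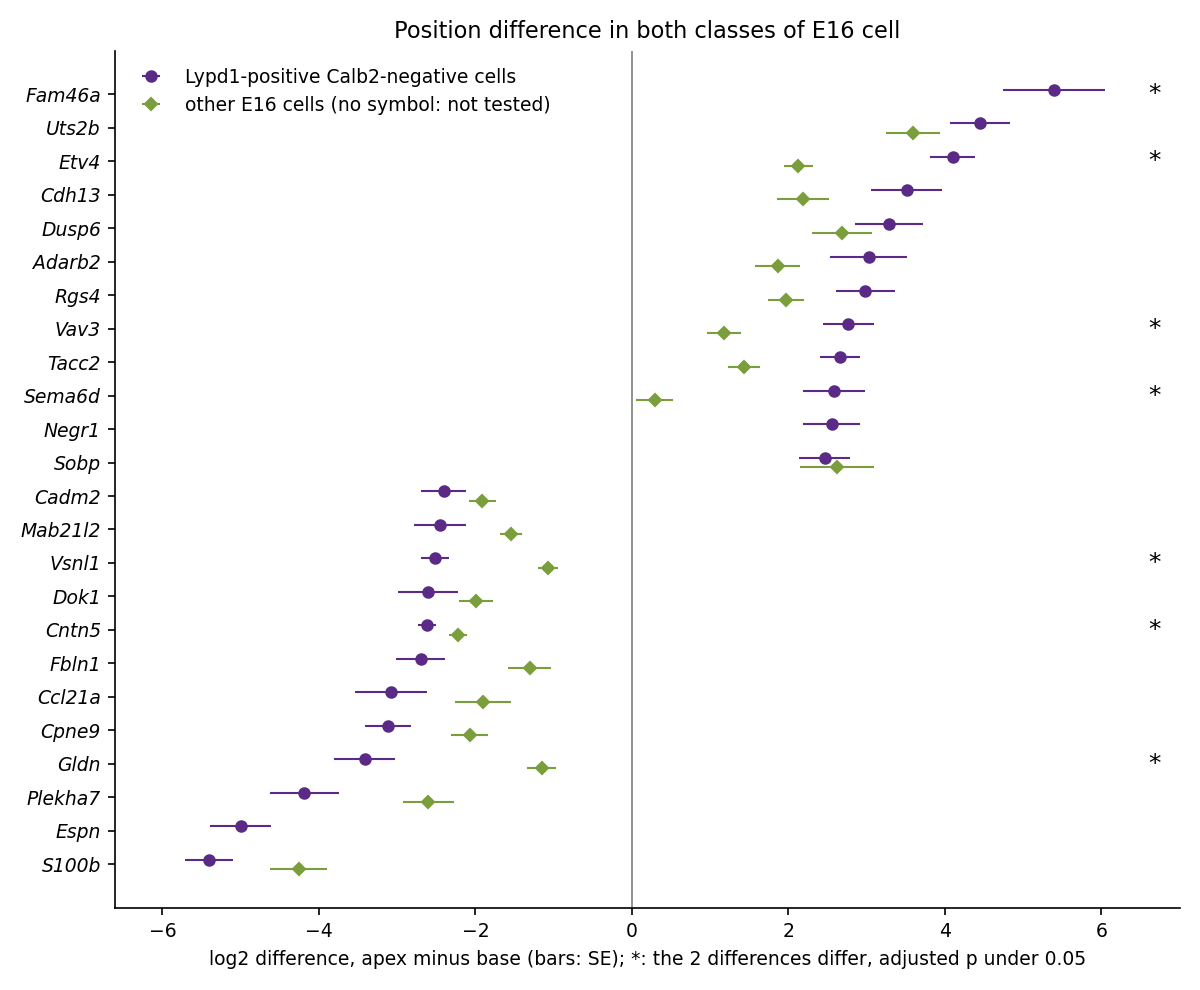
Difference between apex and base (horizontal axis, log2, bars SE) of the 24 named genes in Lypd1-positive Calb2-negative cells (purple circles) and in the other E16 cells (green diamonds, absent where not tested). All values lie on the same side of 0 in each class, Sema6d in other cells is nearest to 0 at 0.29, and asterisks mark the 7 genes whose differences differ between the classes.

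Cells of the same rule at E14 (657 cells) and E18 (215 cells), from libraries that do not enter the E16 comparison, gave a reference for change with age. Of 8157 genes tested between these ages, 1624 were called (19.9%): E18 was the higher age for 952 (11.7%) and E14 for 672 (8.24%). A log2 rise of at least 1 by E18 was found for 558 of them (6.84%) and a fall of at least 1 for 438 (5.37%). Of these risers, 539 were also tested at E16; 188 of them were higher in the base and 4 in the apex (median -0.33), against 4.6% and 2.99% of all genes. Of the fallers, 404 were tested at E16, and 115 were higher in the apex and 11 in the base (median 0.34). Members with no Etv4 UMI gave medians of -0.29 and 0.30. With the age lists made without E18 replicate 1, 196 of 771 and 117 of 675 genes were called in those directions, and the medians were -0.26 and 0.21. The enzyme used for dissociation changed together with age, and the cells of each age were chosen by the same 2 genes, not traced as 1 lineage.

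S100b averaged 1.88 CPM at E14, 200 at E18 and 193 at P1, and Vsnl1 5.68, 217 and 234. Espn was at 0 UMIs at E14 and at 99.5 and 177 CPM at E18 and P1. Apical genes went the opposite way: Uts2b averaged 115 CPM at E14 and 5.23 at E18, Dusp6 72.5 and 6.07, Fam46a 56.1 and 3.13, and Tacc2 159 and 14.1. In S100b and Vsnl1 the mean of the E16 base (105 and 136 CPM) lay between the E16 apex (2.70 and 24.3) and E18.

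**Figure D4:**
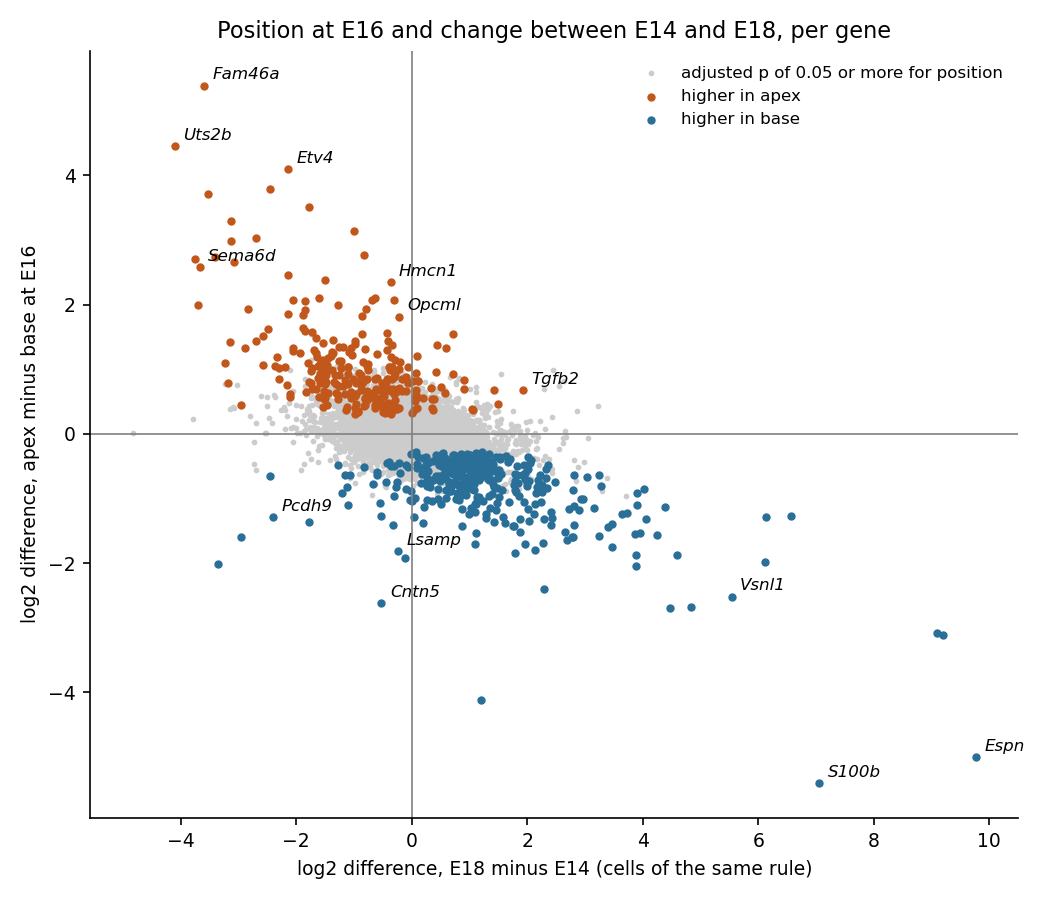
Difference between E18 and E14 (horizontal axis, log2) and between apex and base at E16 (vertical axis, log2) in Lypd1-positive Calb2-negative cells, 1 point per gene; orange and blue genes passed the position test. Genes higher in the base lie mostly to the right and genes higher in the apex mostly to the left; horizontal positions of genes at 0 UMIs at 1 age, such as Espn, depend on the model's prior count.

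Some genes with a large position difference had no call between E14 and E18. Cntn5 stood at 424, 298 and 463 CPM at E14 and averaged 151 ± 38.7 in the E16 apex, 894 ± 140 in the E16 base, 227 ± 147 at E18 and 134 at P1, so the base stood above every other group. Its E18 libraries were at 397, 140 and 146 CPM, and without E18 replicate 1 the age change passed (adjusted p in edgeR 0.00121, against 0.244 with it). Lsamp likewise peaked in the E16 base (253 CPM, against 160 at E14, 73.0 in the E16 apex and 111 at E18). Opcml peaked in the E16 apex (235 CPM, against 79.5 at E14, 68.3 in the base and 53.7 at E18). Hmcn1, a hemicentin of the extracellular matrix, also had its highest mean there, at 159 CPM against 97.7, 34.4 and 60.7. Its E14 libraries (68.9, 147 and 77.3 CPM) overlapped the apical ones (128, 147 and 202).

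In Nefm the E16 base was the lowest embryonic group: 5843 CPM at E14, 6017 in the apex, 2233 in the base and 3578 at E18. Crtac1 had the same order, at 67.7, 72.4, 17.7 and 46.0 CPM. Pcdh17 (2.11) and Pdzrn3 (-1.92 ± 0.28) also had no call with age. Other genes were called for age in the direction opposite to the common one. Onecut2, Nrg1 (-0.64 ± 0.13) and Pcdh9 were higher in the base and lower at E18. The apical and basal libraries of Pcdh9 overlapped, and with DESeq2 Pcdh9 and Nrg1 missed the threshold for position (adjusted p 0.384 and 0.0570). Tgfb2 was higher in the apex (0.67 ± 0.13) and at E18, but apical replicate 1 was at 130 CPM, below the 144 CPM of its basal partner, and it missed the threshold without the block (adjusted p in edgeR 0.172).

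**Figure D5:**
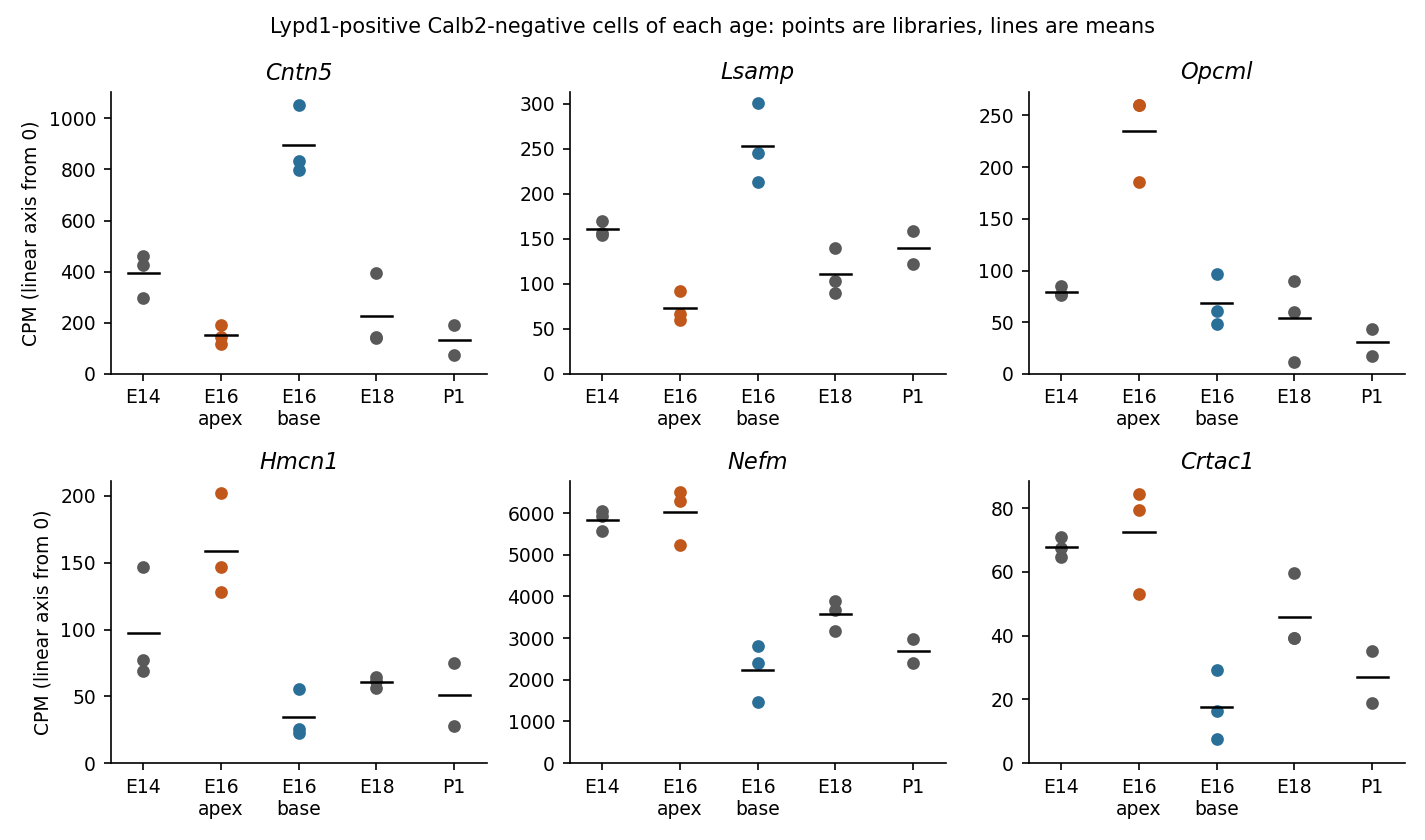
Level (vertical axes, CPM, linear from 0) of 6 genes in Lypd1-positive Calb2-negative cells of E14, E16 apex, E16 base, E18 and P1; points are libraries and lines are means. By their means, Cntn5 and Lsamp peak in the E16 base, Opcml and Hmcn1 in the E16 apex, and Nefm and Crtac1 dip in the E16 base.

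Markers of other cell types were low and several differed with position; their part in the results was not tested. The 10 mesenchyme markers summed to 52.7 to 81.4 CPM in apical and 94.3 to 128 in basal members, with the matrix proteoglycans Dcn (-2.24 ± 0.29) and Lum (-1.23 ± 0.41) higher in the base and Pou3f4 in the apex (1.10 ± 0.30). The 8 hair-cell markers summed to 203 to 244 and 295 to 350 CPM, nearly all of it Cib2 (-0.73 ± 0.13) and Myo6 (-0.31 ± 0.16). The hair-cell factors Pou4f3 and Gfi1 had 0 UMIs, and Atoh1 had 3 in apical and 0 in basal members. The 10 glial markers summed to 63.9 to 87.8 and 61.9 to 91.3 CPM. Red blood cell transcripts ranged from 90.1 to 471 in the apex and 39.2 to 593 in the base. Supporting epithelium summed to at most 42.9 CPM, endothelium to 23.3, macrophages to 6.32, geniculate neurons to 6.20 and melanocytes to 0.727.

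Promoter sequences were matched in RefSeq (GRCm38.p6) for 19 of the 24 named genes. Rgs4 and S100b are shown as 1 gene from each end of the cochlea, by the 250 bases before the annotated start, 5′ to 3′ on the gene's strand. Rgs4 lies at chr1:169747643-169747892, minus strand, and S100b at chr10:76253586-76253835, plus strand. Capitals mark a CAGATG E-box, the kind Neurod1 binds, on either strand (CATCTG on the other).
Rgs4: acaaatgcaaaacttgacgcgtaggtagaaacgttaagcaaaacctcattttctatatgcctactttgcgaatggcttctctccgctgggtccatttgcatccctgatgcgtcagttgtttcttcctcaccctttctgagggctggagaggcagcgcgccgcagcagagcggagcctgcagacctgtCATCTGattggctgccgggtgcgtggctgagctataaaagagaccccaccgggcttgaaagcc
S100b: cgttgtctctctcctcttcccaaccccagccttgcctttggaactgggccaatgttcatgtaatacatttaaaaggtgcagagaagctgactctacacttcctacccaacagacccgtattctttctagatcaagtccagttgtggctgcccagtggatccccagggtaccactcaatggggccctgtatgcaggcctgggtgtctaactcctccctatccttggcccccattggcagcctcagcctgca
Over windows of 300 bases the E-box was in 1 of 13 promoters of the genes higher in the apex, that of Rgs4. It was in 3 of 15 of those higher in the base (Cpne9, Ccl21a and Vsnl1), against 17.2% of 32851 promoters. The printed pair therefore does not show these shares. The ETS core CCGGAA, of the family Etv4 belongs to, was in 1 of 13 and 1 of 15, against 14.9%. The 2 motifs do not overlap, and a match is a description of letters only.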

How the data were processed

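Droplet single-cell RNA libraries were described by 2 deposited tables. The deposited count table holds UMI counts per gene and cell, not normalized by the authors. The other deposited table holds, per cell, the natural log of 1 plus the count scaled to a fixed total, made by the authors. Cell Ranger 3.0.1, Seurat 3.2 and the mm10 (GRCm38) build are named per the submitters' processing notes; filters on cells and doublets are not given in the sources used here, and no doublet caller was run. The count table holds 17999 of 26655 genes. Counts of the other 8656 (28.2% of UMIs) were computed back from the log table, with 0 values further than 0.001 from a whole number. The suffix of each cell name was read as the sample number of the labels, which do not spell this out. The E16 libraries held 235 to 544 cells.

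UMI counts of the selected cells were summed per library and compared with edgeR 4.0.16 in R 4.3.3 (TMM, filterByExpr, quasi-likelihood test, Benjamini-Hochberg adjustment over all genes tested, threshold 0.05), with DESeq2 1.42.0 as an alternative. SE is the log2 difference over the square root of F. The replicate number was a block: both portions of a number come from 1 litter's ganglia, and deviations of same-numbered portions correlated by 0.347, 0.212 and 0.388. Other E16 cells, class by position, and E18 against E14 had fits of their own. The first fit was tested on simulated counts: it recovered 75.8% of 198 genes changed by 1 on the log2 scale (8 false calls) and 99.0% of 199 changed by 2 (11 false calls). These counts were drawn with the spread that the same fit had estimated and with no replicate effect. They therefore cannot show whether that spread is right for the real libraries. Named genes are the 12 largest differences per direction past the threshold with at least 20 CPM in the higher portion, leaving out mitochondrial, ribosomal, haemoglobin and sex-linked marker genes and unnamed gene models, the 8 smallest p per direction for class by position, and list members past the threshold or with the 4 smallest p; genes without an age change were chosen after their values were seen. Some genes that this rule names are not reported here. The members and lists were chosen with earlier results of these data known. Counting intervals are exact at 95% and cover counting error only.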

Additional observations from a re-analysis of the deposited data

Results flagged for a closer look

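In 14 genes, taken from the 8 with the smallest p in each direction, the difference between apex and base at E16 was not the same in Lypd1-positive Calb2-negative cells as in the other E16 cells (edgeR, class by position term, log2). The difference was shifted toward the apex in members for Id2 by 0.96, Nefm by 0.45, Gas1 by 1.53, Gata3 by 0.66, the mitochondrial creatine kinase Ckmt1 by 1.14, Igfbpl1 by 0.87 and Rprm by 0.79. The Hedgehog co-receptor Gas1 averaged 115 CPM in apical and 28.3 in basal members, against 172 and 122 in other cells. Igfbpl1, a marker of young neurons, averaged 142 and 81.0 in members, against 335 and 359 in other cells.

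Toward the base the term was -0.84 for Fth1.1, -0.83 for Sparcl1, -0.61 for Snhg11, -0.82 for Aldh1a3, -1.36 for Tm6sf1, -1.56 for Vsnl1 and -0.41 for Calm2. The matrix protein gene Sparcl1 averaged 367 CPM in apical and 1056 in basal members, against 758 and 1252 in other cells. Aldh1a3 averaged 255 and 544 in members, against 335 and 423. Fth1.1 is a second row under the symbol of the ferritin heavy chain, so reads may be split between copies. DESeq2 called 18 genes for this term, against 127 in edgeR. The share of Calb2-positive cells among the other cells changed with position, so the term is not a measure of members alone.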

How the results depend on the processing

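Of 1740 values of 133 genes past the threshold under the alternatives, 1400 stayed past it in the same direction, 340 missed it and 0 reversed. Within Lypd1-positive Calb2-negative cells the 677 genes past the threshold became 239 with no replicate block, 162 with DESeq2, 358 to 654 with a replicate left out (358 without replicate 3, 436 without replicate 2), 263 in cells of at least 5000 UMIs, 238 and 215 with cells thinned to 3000 and 2000 UMIs, and 359 without Etv4-bearing members. For the other E16 cells (348) the counts were 105 with no replicate block, 96 with DESeq2, 526 with no filter on low counts, 140 at 5000 UMIs or more, 218 and 184 thinned, and 271 to 448 with a replicate left out. For all E16 cells together (1162) they were 309 with no replicate block, 326, 458, 501 and 404 in that order (DESeq2, 5000 UMIs, thinned to 3000, thinned to 2000), and 722 to 1373 with a replicate left out. Class by position (127) gave 18 with DESeq2, 81 at 5000 UMIs, 37 and 27 thinned, and 57 to 85 with a replicate left out. E18 against E14 (1624) gave 962 to 2457 with a library left out, 2457 without E18 replicate 1 and 962 to 1003 without an E14 replicate. The cause of these changes was not tested; fewer UMIs or samples enter the thinned and left-out fits. The difference in the share of members (22.9 points) was 17.4 with at least 2 Lypd1 UMIs, 14.2, 20.2 and 2.27 thinned to 2000, 3000 and 5000 UMIs, 5.52 in cells of at least 5000 UMIs (10.7 and 13.9 in the last 2 without replicate 2, whose basal library kept 11 cells), and 19.4 to 25.5 with a replicate left out. In age lists of at least 2 on the log2 scale the medians were -0.81 and 0.62; with an E16 replicate left out they were -0.35 to -0.32 and 0.32 to 0.44, and without E18 replicate 1 -0.26 and 0.21. The thinning to 2000 UMIs, the 5000 UMI floor on the share, the robust spread and the fits without Etv4-bearing members were chosen after seeing the data. Base replicate 2 had the fewest UMIs (342769), which limits genes of low level.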
